A study of Mus musculus with 13 samples.

Results

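The genes described here are the 10 core genes of the RB restriction point, listed by symbol: the pocket protein genes Rb1, Rbl1 and Rbl2, the transcription factor genes E2f1 and E2f3, the D-type cyclin genes Ccnd1, Ccnd2 and Ccnd3, and the kinase genes Cdk4 and Cdk6. They were chosen by name and not by a rule on their values, though with earlier results of these data known. All 10 were found among the 55487 genes of the deposited count tables. Their RNA was followed through the spontaneous immortalization of mouse embryonic fibroblasts (MEFs), cells that stop dividing after serial passage in culture and from which, on further culture, dividing colonies emerge. Poly-A RNA was sequenced from 13 libraries in 4 groups: 3 wild-type (WT) primary cultures (clones 3, 4 and 5), the 3 immortalized lines grown from them, 3 primary cultures labelled Prkd3-/- (clones 13, 14 and 15) and 4 immortalized lines labelled Prkd3-/- (13, 13a, 14 and 15). Cells were grown in medium with 10% fetal calf serum. Senescent cultures were kept in 20% serum until colonies emerged, and the immortalized lines were then expanded in 10% serum again. Each line is a population outgrown from a single primary culture. Lines 13 and 13a were taken from their labels to share primary clone 13, so they cannot be read as independent embryos.

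D-type cyclins are made when growth factors are present, and they activate the kinases CDK4 and CDK6. The active kinases phosphorylate the pocket proteins RB, p107 (Rbl1) and p130 (Rbl2), which otherwise bind E2F factors and keep E2F target genes silent. Released E2F factors switch on genes for DNA replication, and INK4 and CIP/KIP proteins oppose the kinases. In MEFs this pathway, together with the products of the Cdkn2a locus, is known for setting the arrest that ends the life of a primary culture.

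In the GRCm38 annotation Rb1 (ENSMUSG00000022105) lies on chromosome 14 from 73183673 to 73325822, Rbl1 (ENSMUSG00000027641) on chromosome 2 from 157145893 to 157204534 and Rbl2 (ENSMUSG00000031666) on chromosome 8 from 91070057 to 91123844. E2f1 (ENSMUSG00000027490) lies on chromosome 2 from 154559407 to 154569892 and E2f3 (ENSMUSG00000016477) on chromosome 13 from 29906575 to 29986063. Ccnd3 (ENSMUSG00000034165) lies on chromosome 17 from 47505051 to 47599691, and Ccnd1 (ENSMUSG00000070348), Ccnd2 (ENSMUSG00000000184), Cdk4 (ENSMUSG00000006728) and Cdk6 (ENSMUSG00000040274) lie on 4 further chromosomes, with positions given beside their neighbouring genes. The values are counts over all exons of each gene, UTRs included.

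Levels are given in CPM, read counts scaled to library size with TMM factors over all 13 libraries, and genes were compared with each other only as CPM per kb of exon. Library totals ranged from 35273408 to 100441756 counts, and the lowest count of any of the 10 genes in any library was 607, far above the floor of 3 counts. Prkd3 itself, the targeted gene, gave 43.2, 39.7 and 33.6 CPM in Prkd3-/- primary cultures 13, 14 and 15 and 61.0, 49.1, 60.3 and 43.8 CPM in lines 13, 13a, 14 and 15. WT primary cultures 3, 4 and 5 had 73.7, 72.2 and 69.2 CPM and the WT lines 73.6, 93.8 and 79.6 CPM, so every Prkd3-/- library lay below every WT library but none was near 0. Counts per gene cannot show the loss of single exons, so Prkd3-/- is used as the name on the label. The WT and Prkd3-/- libraries were deposited in separate tables, so that genotype and table cannot be told apart. Of 10 fibroblast markers Col1a1, Col1a2, Col3a1, Fn1 and Vim stayed above 900 CPM in every library, whereas Dcn was at 0.661 CPM in WT line 3, 0.382 CPM in Prkd3-/- line 13 and 0.702 CPM in Prkd3-/- line 15, against 124 to 132 CPM in WT primary cultures. Lum and Thy1 were also low in these 3 lines, at 0.0483 to 1.57 CPM and 4.85 to 36.3 CPM, against at least 165 and 363 CPM in WT primary cultures. Dcn and Lum were already lower in Prkd3-/- primary cultures 13, 14 and 15. These held 9.89, 30.5 and 4.04 CPM of Dcn, 53.4, 12.1 and 10.4 CPM of Lum and 524, 811 and 453 CPM of Thy1. Pdgfra held 27.5, 44.1 and 484 CPM in WT lines 3, 4 and 5, against 148 to 157 CPM in WT primary cultures. In Prkd3-/- lines 13, 13a, 14 and 15 it held 10.2, 97.3, 91.1 and 125 CPM, against 48.8 to 102 CPM in primary cultures. Pdgfrb held 359, 1042 and 586 CPM in the WT lines, against 445 to 465 CPM in primary cultures. Its Prkd3-/- values were 221 to 575 CPM in lines and 176 to 217 CPM in primary cultures. Summed CPM of 10 macrophage markers was 799 to 817 in WT primary cultures and 37.6 to 118 in WT lines, 106 to 1128 in Prkd3-/- primary cultures and 10.4 to 209 in Prkd3-/- lines. At the thresholds given below 6 of these 10 markers were called lower in WT lines, where 1.82% of all tested genes were called. None was called in Prkd3-/- lines, where no tested gene was. All 10 had a negative Log2FC in both genotypes, with medians of −4.13 in WT and −3.27 in Prkd3-/-. In such bulk samples fewer cells of a type and less RNA per cell cannot be told apart, and the part of these other cells in the values that follow was not tested. Prkd3-/- line 13 stood apart: over 13847 genes its Pearson correlation with the other 3 lines was 0.745 to 0.847, while those lines correlated with each other at 0.863 to 0.905.

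None of the 10 genes passed the study's thresholds, an adjusted p-value under 0.01 with a |Log2FC| of at least 1, in either genotype. In WT lines against WT primary cultures 361 of 19836 tested genes passed in edgeR's quasi-likelihood test, 1.82% of all. In Prkd3-/- lines the same test called 0 of 20298 genes, or 0%. With an unadjusted p under 0.05 the WT comparison held 19.7% of all tested genes and 1 of the 10, Ccnd3, and with an adjusted p under 0.05 it held 5.27% and none. The Prkd3-/- comparison held 6.56% and none of the 10. Groups that did not overlap were 31.3% of all tested genes in WT, 14% with every line above every primary culture and 17.3% with every line below. Among the 10 genes this held for Cdk4, above, and Ccnd3, below. In Prkd3-/- cells the groups did not overlap for 9.44% of all genes and for none of the 10. The median Log2FC of the 10 genes was −0.13 in WT and 0.14 in Prkd3-/-, beside 0.04 and 0.07 over all tested genes. No change of mean was called by DESeq2 or by limma for any of the 10 either.

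The lines scattered more than the primary cultures. For each of the 10 genes the SD of log2 CPM was larger among immortalized lines than among primary cultures, in both genotypes. This was also the case for 88.9% of all tested genes in WT and 83.1% in Prkd3-/-, so the larger scatter was shared by most tested genes. Its size differed between the 10 genes. In WT lines Cdk6 varied 3.88-fold from the lowest to the highest line, while Rb1 varied 1.22-fold. Among Prkd3-/- lines Ccnd2 varied 12.0-fold and Cdk4 1.38-fold. Among WT primary cultures the largest such ratio of the 10 genes was 1.12, for Rbl1. Among Prkd3-/- primary cultures it was 1.70, for Ccnd1, which was close to the 1.87 of the lines for that gene. Over 13847 genes the WT primary cultures correlated with each other at 0.996 to 0.998, and the Prkd3-/- primary cultures at 0.932 to 0.988. The WT lines were thus set against a tighter primary group than the Prkd3-/- lines.

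**Figure D1:**
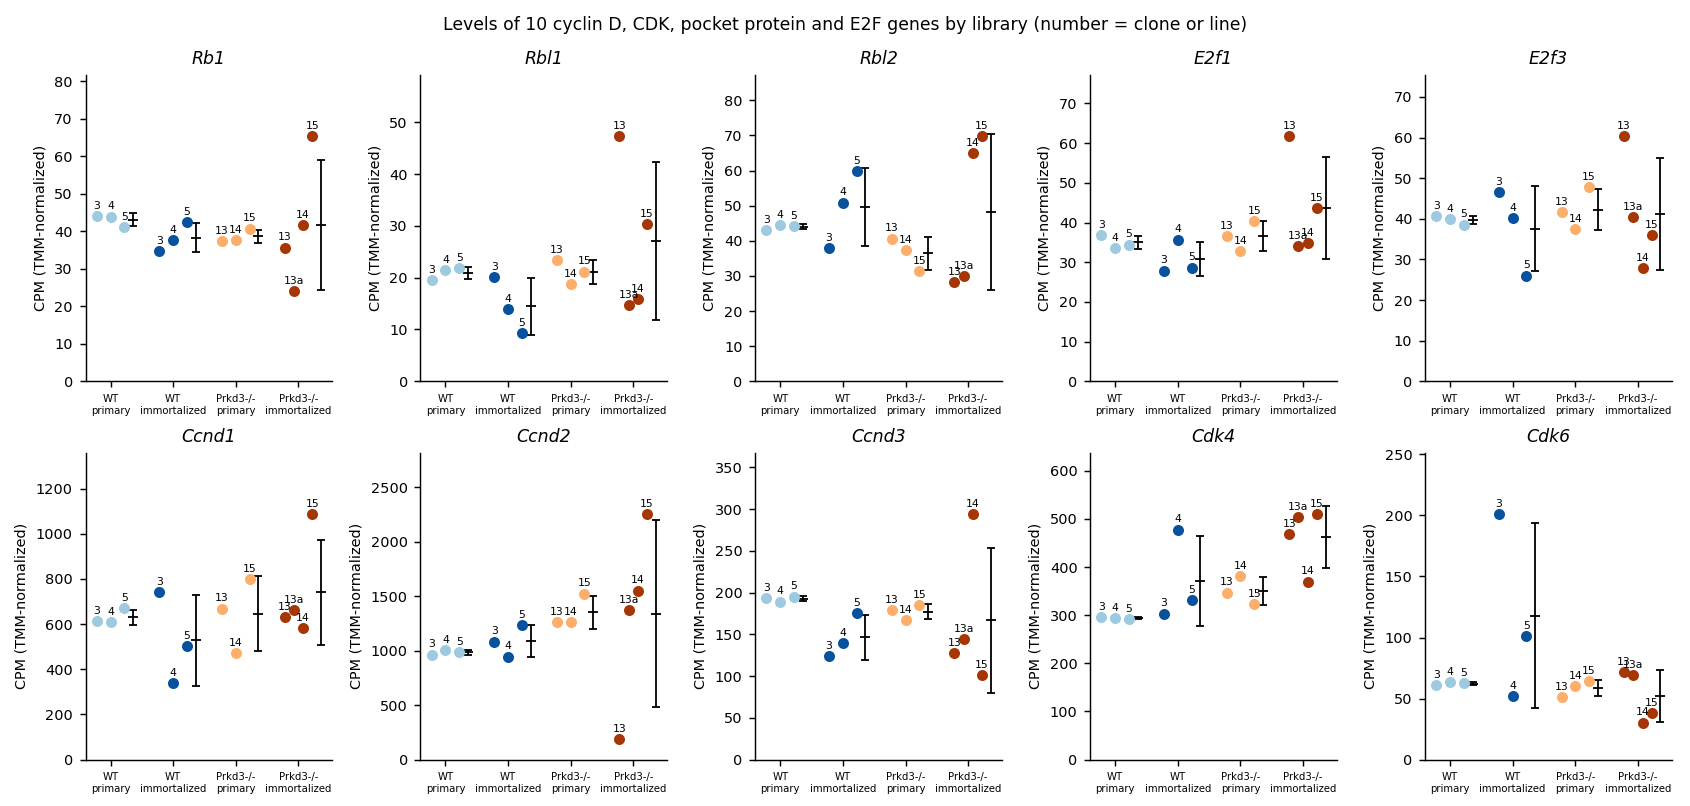
TMM-normalized CPM (linear axes from 0) of the 10 genes in each of 13 libraries; each point is a library labelled by its clone or line, and the black bars give mean and SD of the group. WT primary cultures lie close together for every gene, and the lines scatter, with Ccnd2 at 187 CPM in Prkd3-/- line 13 and Cdk6 at 201 CPM in WT line 3 as the most distant values.

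Ccnd1 and Ccnd2, with Cdk4, were the most abundant of the 10 transcripts per kb. In WT primary cultures Ccnd1 stood at 133.8 ± 7.28 CPM per kb (SD, n = 3), Ccnd2 at 104.6 ± 2.14 and Ccnd3 at 22.0 ± 0.349. Per kb, Ccnd1 thus made up 51.4% ± 1.35 of the D-cyclin RNA of WT primary cultures and Ccnd2 40.2% ± 1.27. Without division by length the order turned, with 34.9% for Ccnd1 and 54.5% for Ccnd2, since the Ccnd2 exons are longer. In Prkd3-/- primary cultures Ccnd2 and Ccnd1 did not differ beyond their spread, at 143.6 ± 16.0 and 137.4 ± 35.2 CPM per kb.

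Ccnd1 encodes cyclin D1, the D-type cyclin most closely tied to growth factor signals in fibroblasts. WT primary cultures held 613, 608 and 669.7 CPM for clones 3, 4 and 5, and the lines 742, 339.9 and 503 CPM. Line 3 thus lay above its primary cultures and lines 4 and 5 below (Log2FC −0.26, SE 0.29, edgeR adjusted p = 0.678). The Prkd3-/- primary cultures held 669, 471 and 801 CPM for clones 13, 14 and 15, and lines 13, 13a, 14 and 15 held 630.2, 662, 582 and 1087 CPM. Line 15 was the highest of all 13 libraries and the other 3 lines lay inside the range of the primary cultures (Log2FC 0.18, SE 0.30, edgeR adjusted p = 0.921). Of the exon bases of Ccnd1 23.4% are shared with LTO1, and in the WT table, where a read pair was assigned to every gene it overlapped, the LTO1 counts hold reads of Ccnd1.

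Ccnd2, which encodes cyclin D2, gave the largest single departure among the 10 genes. WT primary cultures held 963, 1003 and 985 CPM and WT lines 1082, 946 and 1238 CPM, ranges that overlap (Log2FC 0.15, SE 0.15, edgeR adjusted p = 0.647). Before immortalization the Prkd3-/- cultures held 1265, 1262 and 1525 CPM. Of the Prkd3-/- lines, 13a, 14 and 15 held 1373, 1551 and 2253 CPM, whereas line 13 held 187 CPM, a log2 ratio of −2.85 to the mean of the primary cultures. The low value rests on 9809 counts. Line 13a, by its label from the same primary clone, kept a log2 ratio of 0.03. The Log2FC over the 4 lines was −0.02 (SE 0.67, edgeR adjusted p = 0.999), and without line 13 it was 0.35 (SE 0.25, edgeR adjusted p = 0.666).

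Ccnd3 encodes cyclin D3, the third member of the family. It stood at 194, 189 and 195 CPM in WT primary cultures and at 124, 139 and 176 CPM in lines 3, 4 and 5, so that each WT line lay below each primary culture. The Log2FC was −0.40 (SE 0.15) with an edgeR adjusted p of 0.212, which does not pass. With single libraries left out it ranged from −0.55 without line 5 to −0.29 without line 3. Without line 5 the edgeR adjusted p was 0.0212, and the Log2FC was still short of the fold threshold. Leaving out line 5 also gave the most calls over all WT genes, as stated in the last section. For Prkd3-/- the primary cultures held 179, 167 and 185 CPM and the lines 127, 144, 294 and 101.6 CPM. Line 14 was the highest library and the other 3 lines lay below the primary cultures (Log2FC −0.09, SE 0.37, edgeR adjusted p = 0.971).

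The make-up of the D-cyclin pool therefore differed most in 1 line. Ccnd2 gave 45.3% to 53.0% of D-cyclin CPM per kb in Prkd3-/- primary cultures and 48.15% to 51.2% in lines 13a, 14 and 15, but 11.8% in line 13, where Ccnd1 gave 79.6%. The ratio of Ccnd1 to Ccnd2 per kb was 6.72 in line 13 and 0.749 to 0.964 in the other 3 Prkd3-/- lines. In the WT lines it was 1.37 in line 3, 0.718 in line 4 and 0.812 in line 5, against 1.21 to 1.36 in WT primary cultures. Summed over the 3 cyclins, D-cyclin RNA reached 168 CPM per kb in line 13 and 482 in line 15, against 253 to 353 in the Prkd3-/- primary cultures.

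**Figure D2:**
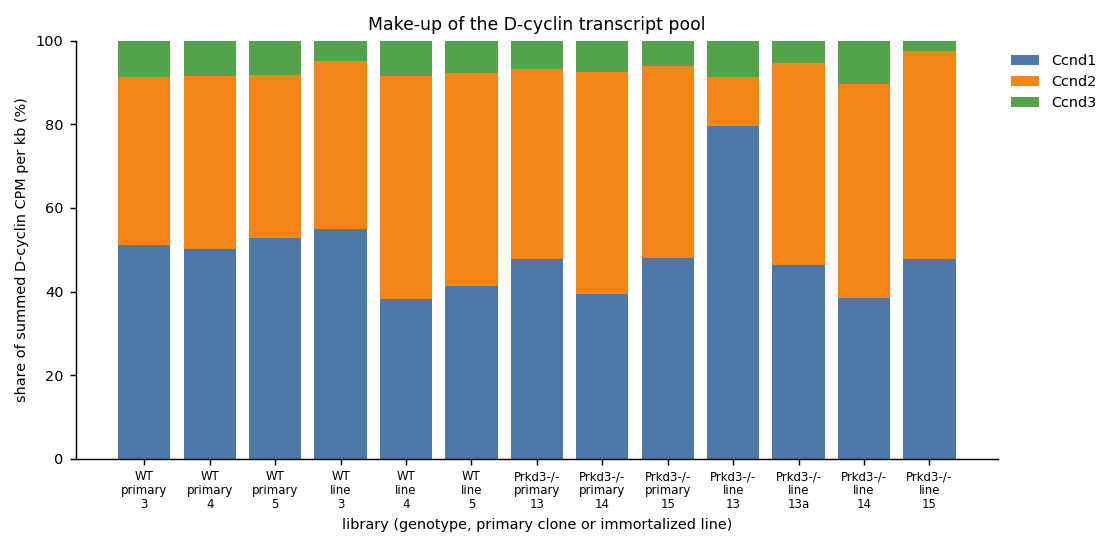
Share of each D-type cyclin in the summed D-cyclin CPM per kb (%, linear axis from 0 to 100), 1 stacked bar per library, in the order WT primary, WT immortalized, Prkd3-/- primary and Prkd3-/- immortalized. Ccnd2 gives 38.9% to 53.3% in every library except Prkd3-/- line 13, where it gives 11.8%.

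Cdk4 encodes the main partner kinase of the D-type cyclins in these cells by transcript level, with 95.3% of the summed CPM per kb of Cdk4 and Cdk6 in WT primary cultures. It was the steadiest gene of the 10 among WT primary cultures, at 296, 294 and 292.5 CPM. WT lines 3, 4 and 5 held 303, 478 and 332 CPM, each above each primary culture (Log2FC 0.33, SE 0.19, edgeR adjusted p = 0.402), and without line 4 the Log2FC was 0.11. Among Prkd3-/- libraries the primary cultures held 347, 382 and 322 CPM and lines 13, 13a, 14 and 15 held 468, 504, 370.0 and 510.0 CPM. Only line 14 lay within the range of the primary cultures. The Log2FC of 0.39 (SE 0.19, edgeR adjusted p = 0.788) had the smallest unadjusted p of the 10 genes in that genotype, 0.0704. Of the exon bases of Cdk4 19.7% are shared with Tspan31.

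Cdk6, the second kinase of the pair, was about as low as the pocket protein genes per kb, at 4.46 ± 0.0762 CPM per kb (SD, n = 3) in WT primary cultures. These cultures held 61.2, 63.2 and 62.6 CPM, while WT lines 3, 4 and 5 held 201, 51.9 and 101.1 CPM. Lines 3 and 5 lay above every primary culture and line 4 below (Log2FC 0.92, SE 0.47, edgeR adjusted p = 0.354). Without line 3 the Log2FC was 0.30. With Prkd3-/- the primary cultures held 51.1, 60.2 and 64.5 CPM and lines 13, 13a, 14 and 15 held 71.6, 69.2, 30.3 and 37.9 CPM. Lines 13 and 13a lay above the primary cultures and lines 14 and 15 below (Log2FC −0.18, SE 0.33, edgeR adjusted p = 0.930). The share of Cdk6 in the kinase pool per kb ran from 1.70% in Prkd3-/- line 15 to 13.35% in WT line 3.

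Rb1 encodes RB itself. WT primary cultures held 44.1, 43.9 and 41.1 CPM and the WT lines 34.8, 37.6 and 42.4 CPM, with line 5 inside the range of the primary cultures (Log2FC −0.17, SE 0.10, edgeR adjusted p = 0.419). The values of Prkd3-/- primary cultures were 37.5, 37.7 and 40.7 CPM. Lines 13, 13a, 14 and 15 held 35.6, 24.1, 41.6 and 65.4 CPM, so that line 13a was the lowest and line 15 the highest of all libraries (Log2FC 0.10, SE 0.32, edgeR adjusted p = 0.966). Rb1 RNA was present in every line, and the lowest, line 13a, held 0.624 of the mean of its primary cultures.

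Rbl1 and Rbl2 encode the pocket proteins p107 and p130, and Rbl1 is itself a known E2F target while p130 is the form associated with resting cells. RefSeq promoter sequences of Rbl1, Rbl2 and E2f3 (GRCm38.p6, reverse strand for Rbl1 and E2f3 and forward strand for Rbl2) were picked for display after the values were seen. A link between these sequences and the levels was not tested. Each sequence holds the 150 bases before the transcription start, 5′ to 3′, with matches to an E2F motif in capitals. The windows are chr2:157204535-157204684 for Rbl1, chr8:91069907-91070056 for Rbl2 and chr13:29986064-29986213 for the annotated start of E2f3.
Rbl1: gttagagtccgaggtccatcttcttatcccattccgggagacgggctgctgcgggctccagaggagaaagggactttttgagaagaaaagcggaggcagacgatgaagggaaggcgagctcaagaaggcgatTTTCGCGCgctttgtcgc
Rbl2: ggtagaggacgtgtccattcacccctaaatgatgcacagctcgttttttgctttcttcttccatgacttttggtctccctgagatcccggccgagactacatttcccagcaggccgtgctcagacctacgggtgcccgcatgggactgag
E2f3: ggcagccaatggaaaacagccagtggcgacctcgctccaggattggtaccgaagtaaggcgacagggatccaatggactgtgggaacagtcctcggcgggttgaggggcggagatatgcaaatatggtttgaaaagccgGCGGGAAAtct
The letters searched were TTTCCCGC, TTTGGCGC, TTTCGCGC and TTTGCCGC on both strands. Rbl1 holds TTTCGCGC, which begins 18 bases before the start. E2f3 holds TTTCCCGC on the other strand, and the first of its capitals as printed lies 11 bases before the start. None of the 4 forms lies in the 250 bases before the start of Rbl2, which says only that these letters are not in that window. Over all 32851 RefSeq promoter windows 1.86% hold a match in those 250 bases. RefSeq windows were found for 7 of the 10 genes, Rbl1, Rbl2, E2f1, E2f3, Ccnd3, Cdk4 and Cdk6, and those of E2f1 and Cdk6 do not begin at the annotated gene start. Of the 9 windows of these 7 genes 2, or 22.2%, hold a match, both of them shown above. The windows of E2f1, Ccnd3, Cdk4 and Cdk6 hold none, and neither does a second window of E2f3.

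Rbl1 stood at 19.6, 21.4 and 21.8 CPM in WT primary cultures and at 20.2, 13.98 and 9.28 CPM in lines 3, 4 and 5. Line 3 lay within the range of the primary cultures and the other lines below it (Log2FC −0.53, SE 0.28, edgeR adjusted p = 0.366). In the other genotype primary cultures held 23.3, 18.8 and 21.2 CPM, and lines 13, 13a, 14 and 15 held 47.4, 14.7, 15.8 and 30.4 CPM. Lines 13 and 15 lay above every primary culture and lines 13a and 14 below (Log2FC 0.34, SE 0.42, edgeR adjusted p = 0.890). Without line 13 the Log2FC was −0.06 (SE 0.31, edgeR adjusted p = 0.963).

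Rbl2 stood at 43.2, 44.6 and 44.3 CPM in WT primary cultures and at 37.9, 50.9 and 59.9 CPM in lines 3, 4 and 5, with line 3 below and lines 4 and 5 above (Log2FC 0.17, SE 0.17, edgeR adjusted p = 0.645). Clones 13, 14 and 15 held 40.7, 37.3 and 31.4 CPM as primary cultures and lines 13, 13a, 14 and 15 held 28.3, 29.9, 65.0 and 69.9 CPM. Lines 13 and 13a lay below every primary culture and lines 14 and 15 above (Log2FC 0.40, SE 0.38, edgeR adjusted p = 0.877). Of the exon bases of Rbl2 21.0% are shared with Gm45464 and Aktip, and of those of Rb1 14.9% with Rcbtb2 and Lpar6, whereas Rbl1 shares none.

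The ratio of Rbl1 to Rbl2 per kb was 0.571 to 0.621 in WT primary cultures and 0.672, 0.347 and 0.196 in WT lines 3, 4 and 5. With Prkd3-/- it was 0.635 to 0.851 in primary cultures and 2.11, 0.622, 0.307 and 0.548 in lines 13, 13a, 14 and 15. Line 13 was thus the only library with more Rbl1 than Rbl2 RNA per kb, and WT line 5 had the lowest ratio. Rb1 kept 33.7% to 46.8% of the pocket protein RNA per kb in every library.

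E2f1 and E2f3 encode activating E2F factors, which bind RB, and E2f1 is also induced by E2F activity. E2f1 stood at 36.9, 33.6 and 34.5 CPM in WT primary cultures and at 27.9, 35.7 and 28.6 CPM in lines 3, 4 and 5, where lines 3 and 5 lay below (Log2FC −0.19, SE 0.12, edgeR adjusted p = 0.459). In Prkd3-/- cells the primary cultures held 36.6, 32.9 and 40.4 CPM and lines 13, 13a, 14 and 15 held 61.8, 34.2, 34.8 and 43.7 CPM. Lines 13 and 15 lay above the primary cultures and lines 13a and 14 within their range (Log2FC 0.24, SE 0.24, edgeR adjusted p = 0.880).

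E2f3 stood at 40.7, 39.9 and 38.6 CPM in WT primary cultures and at 46.5, 40.2 and 26.03 CPM in the lines, with line 5 the lowest of all libraries (Log2FC −0.08, SE 0.21, edgeR adjusted p = 0.874). The Prkd3-/- cultures held 41.7, 37.5 and 47.7 CPM before immortalization and lines 13, 13a, 14 and 15 held 60.4, 40.3, 27.9 and 36.0 CPM. Only line 13 lay above the primary cultures (Log2FC −0.05, SE 0.27, edgeR adjusted p = 0.979). Per kb, E2f3 and Rb1 did not differ beyond their spread in WT primary cultures, at 7.31 ± 0.199 and 7.16 ± 0.283 CPM per kb, and E2f1 was higher at 11.1 ± 0.541. Rbl2, Cdk6 and Rbl1 followed at 5.82, 4.46 and 3.49 CPM per kb, each gap being larger than the SDs.

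**Figure D3:**
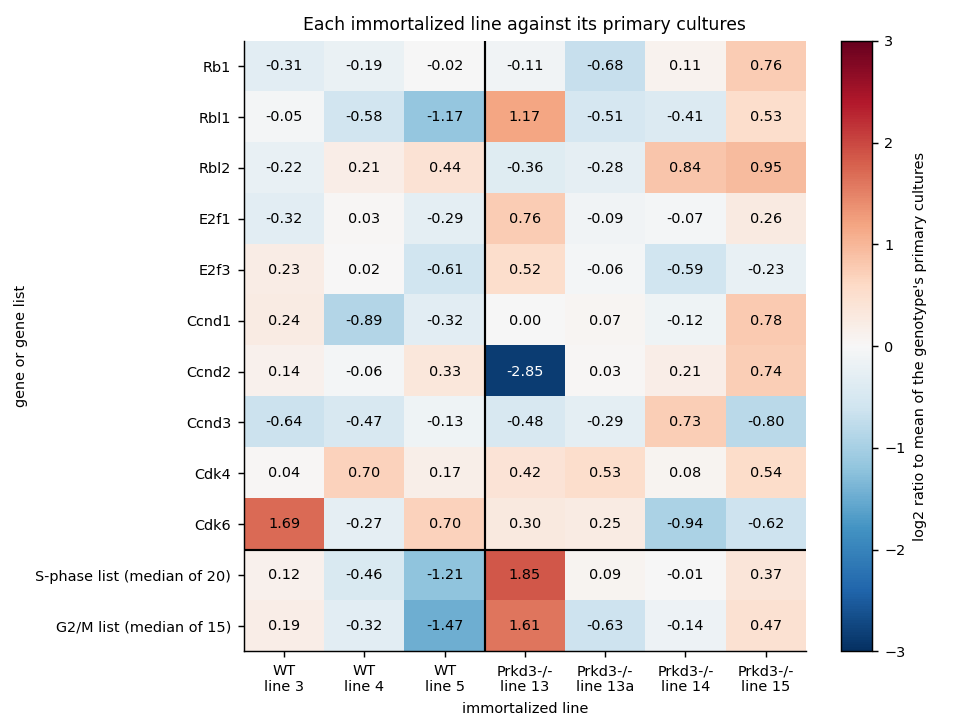
Log2 ratio of each immortalized line to the mean of the primary cultures of its genotype, for the 10 genes and for the median of the S-phase and G2/M gene lists (rows), with the value written in each cell; red is higher and blue lower, on a scale from −3 to 3. Prkd3-/- line 13 has the highest Rbl1, E2f1 and E2f3 ratios and the highest list medians, WT line 5 the lowest Rbl1 and E2f3 ratios and the lowest list medians, and neither Cdk4 nor Rb1 departs by more than 0.76.

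The genes that E2F factors control were read from lists of pathway genes drawn up by function. Of 20 S-phase genes none passed the thresholds in either genotype. In WT lines 19 of the 20 had a negative Log2FC, with a median of −0.40 beside 0.04 over all tested genes. In Prkd3-/- lines all 20 were positive, with a median of 0.70 beside 0.07. The lines differed widely. Prkd3-/- line 13 had all 20 genes above the mean of the primary cultures, at a median log2 ratio of 1.85, and without it the median Log2FC of the list was 0.07 with 15 of 20 positive. Line 15 had 17 of 20 above, at a median of 0.37. WT line 5 had all 20 below, at a median of −1.21, line 4 had 19 of 20 below, at −0.46, and line 3 had 14 of 20 above, at 0.12. Without line 5 the WT median was −0.12 with 16 of 20 negative, and without line 3 it was −0.72 with all 20 negative. The smallest p in WT belonged to Slbp (histone mRNA processing, Log2FC −0.39, SE 0.12, edgeR adjusted p = 0.153) and Pcna (the replication clamp, −0.58, SE 0.23, 0.237). In Prkd3-/- it belonged to the helicase subunit genes Mcm2 (1.08, SE 0.45, 0.749) and Mcm3 (1.09, SE 0.49, 0.772). Of the 19 RefSeq promoter windows found for these genes 7, or 36.8%, hold an E2F match of the kind searched above.

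Of the 15 genes of the G2/M list all 15 had a negative Log2FC in WT (median −0.37) and 14 of 15 a positive one in Prkd3-/- (median 0.49), with none called, and without line 13 the Prkd3-/- median was −0.09 with 5 of 15 positive. Without primary clone 14 it was 0.17. The WT median was −0.03 without line 5 and −0.80 without line 3. The median log2 ratio was 1.61 in line 13 and −1.47 in WT line 5. Ccnb2 and Birc5 had the smallest p in WT, with Log2FC values of −0.69 (SE 0.39) and −0.59 (SE 0.34), and Cdk1 and Kif20a in Prkd3-/-, with 0.64 (SE 0.45) and 0.72 (SE 0.53). All 4 code for mitotic regulators, and none had an edgeR adjusted p under 0.401.

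By Pearson correlation Rbl1 ran closest to the S-phase list among the 10 genes, whereas by rank Ccnd1 equalled it and, without line 13, lay above it. Over 13 libraries the log2 CPM of Rbl1 and the mean of the 20 genes had a Pearson correlation of 0.911 and a Spearman correlation of 0.720, and without line 13 of 0.836 and 0.643. For E2f1 the values were 0.868 and 0.670, and 0.653 and 0.580 without line 13. For E2f3 they were 0.735 and 0.489, and for Rb1 −0.05 and −0.24. Rbl2 had −0.48 and −0.34. Ccnd1 had 0.480 and 0.720, and 0.743 and 0.804 without line 13. The Pearson value of Ccnd2 turned with a single library, from −0.57 to 0.50 without line 13, and its Spearman value went from 0.346 to 0.713. These are descriptions over libraries that share a culture, a table and a scaling, with no test.

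**Figure D4:**
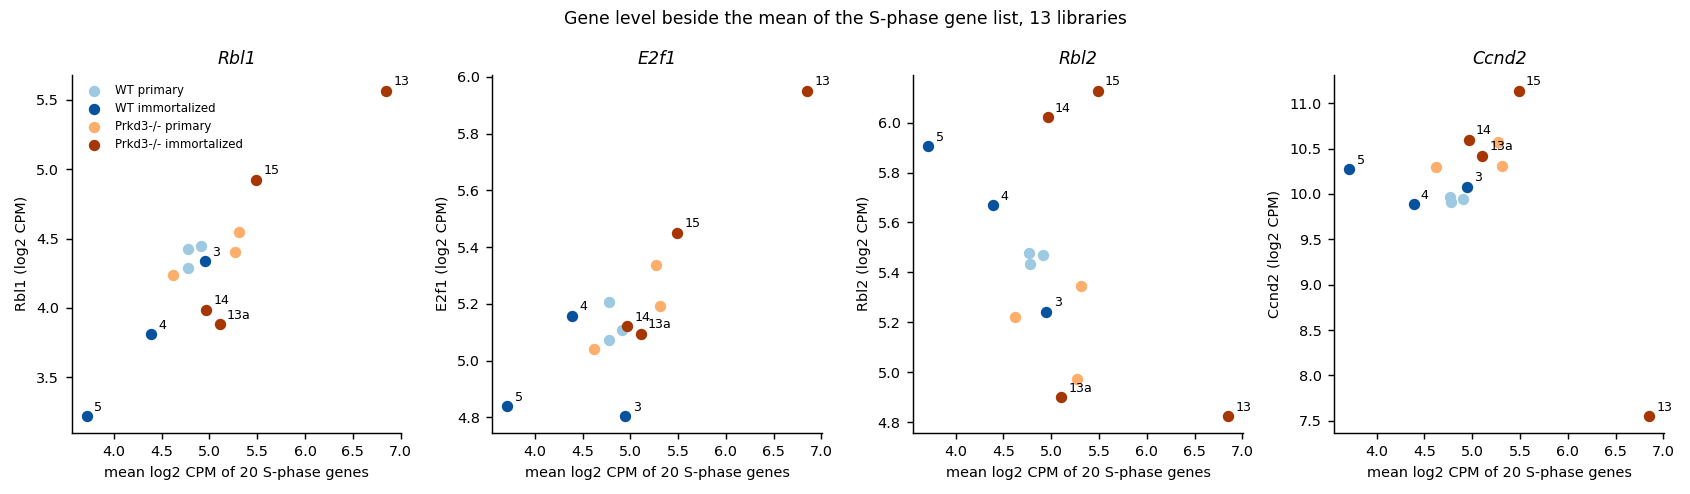
Log2 CPM of Rbl1, E2f1, Rbl2 and Ccnd2 (vertical axes, each with its own range) against the mean log2 CPM of 20 S-phase genes (horizontal axis) in 13 libraries, colored by group, with the immortalized lines numbered. Rbl1 climbs with the list from WT line 5 to Prkd3-/- line 13, Rbl2 is lowest in line 13 and highest in Prkd3-/- lines 14 and 15, and for Ccnd2 line 13 sits alone at the bottom right.

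The INK4 and CIP/KIP inhibitors, which hold the kinases in check, ranged widely between lines. In Prkd3-/- line 13 Cdkn2a, which encodes the INK4 inhibitor of CDK4 and CDK6 and ARF, held 12 counts or 0.229 CPM, and its neighbour Cdkn2b held 7 counts or 0.134 CPM. Prkd3-/- primary cultures held 64.0 to 85.9 CPM of Cdkn2a and 77.7 to 84.1 CPM of Cdkn2b. Line 13a held 187 CPM of Cdkn2a, above these cultures, and 59.2 CPM of Cdkn2b, below them. Lines 14 and 15 held 69.2 and 85.3 CPM of Cdkn2a and 32.0 and 23.5 CPM of Cdkn2b. Every Prkd3-/- line thus lay below every primary culture for Cdkn2b, where groups did not overlap for 9.44% of all tested genes. WT lines 3, 4 and 5 held 21.4, 30.4 and 104 CPM of Cdkn2b, against 81.8 to 85.9 CPM in WT primary cultures. Line 13 was thus the library with the lowest Cdkn2a, Cdkn2b and Ccnd2 RNA and the highest Rbl1, E2f1 and E2f3. WT line 5 had the most Cdkn2a of all libraries, 215 CPM against 58.2 to 61.5 CPM in WT primary cultures, and the least Rbl1 and E2f3. Prkd3-/- line 13a, next highest in Cdkn2a, held 40.3 CPM of E2f3, within the range of the Prkd3-/- primary cultures, and 14.7 CPM of Rbl1, below it. A relation between Cdkn2a and these genes was not tested. As a group, 2 of the 7 inhibitor genes had a positive and 5 a negative Log2FC in WT, and 4 were positive and 3 negative in Prkd3-/-, with none called. Leaving out single libraries brought 2 of them past the thresholds as lower in WT lines, Cdkn1c without line 3 and Cdkn2b without line 5.

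Within this list Cdkn2d, a further INK4 gene, was at 12.6 to 13.8 CPM in WT primary cultures and 7.86 to 9.29 CPM in WT lines (Log2FC −0.64, SE 0.11, edgeR adjusted p = 0.0335), which is under 0.05 but does not pass the thresholds. Cdkn1c, a CIP/KIP gene, had a Log2FC of −1.53 (SE 0.69, edgeR adjusted p = 0.299). With Prkd3-/- the smallest p belonged to Cdkn1b, with a Log2FC of 0.72 (SE 0.26, edgeR adjusted p = 0.696) and each line above each primary culture, and to the p53 target Cdkn1a, with −1.05 (SE 0.42, edgeR adjusted p = 0.730).

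Of the 8 other E2F and DP genes, which code for the remaining E2F factors and their DP partners, none was called. E2f2 came nearest: WT primary cultures held 4.97, 5.06 and 5.01 CPM and lines 3, 4 and 5 held 0.338, 0.965 and 0.367 CPM (Log2FC −3.17, SE 0.46, edgeR adjusted p = 0.0181). Macrophage markers were lower in the same lines, as given above, and their part in the E2f2 value was not tested. Without line 4 E2f2 passed the thresholds. E2f2 in Prkd3-/- cells held 1.54 to 3.32 CPM in primary cultures and 0.672 to 3.55 CPM in lines (Log2FC −0.68, SE 0.68, edgeR adjusted p = 0.878). Tfdp2 had a Log2FC of −0.30 (SE 0.09, edgeR adjusted p = 0.138) in WT, and Tfdp1 and E2f6 had 0.37 (SE 0.29) and −0.28 (SE 0.23) in Prkd3-/-. The repressors E2f7 and E2f8 reached 71.95 and 62.9 CPM in line 13, against at most 28.3 and 20.6 CPM in Prkd3-/- primary cultures.

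The 7 genes of the cyclin E/A and CDK2 module, which acts after the D-type cyclins, had a median Log2FC of −0.14 in WT and 0.37 in Prkd3-/-, with Skp2 (−0.36, SE 0.17) and Ccna2 (−0.51, SE 0.47) first by p in WT and Fbxo5 (0.80, SE 0.60) and Cdk2 (0.37, SE 0.30) in Prkd3-/-. For 9 genes of the MuvB core with B-MYB and FOXM1 the medians were −0.07 and 0.33. Rbbp4 (−0.33, SE 0.15) and Dyrk1a (0.18, SE 0.11) had the smallest p in WT, and Foxm1 (0.90, SE 0.57) and Lin9 (0.66, SE 0.47) in Prkd3-/-. For 8 genes of cyclin D turnover and CDK activation the medians were 0.03 and −0.02. There Gsk3b, a kinase that marks cyclin D1 for export and destruction, had a Log2FC of 0.35 (SE 0.11, edgeR adjusted p = 0.167) and Cdk7 −0.11 (SE 0.07) in WT, and Ccnh 0.24 (SE 0.18) and Fbxo4 0.13 (SE 0.20) in Prkd3-/-. None of the genes in these 3 lists was called.

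The fold changes of both genotypes were compared as an interaction over all 13 libraries. None of the 10 genes differed between genotypes at an adjusted p under 0.05, and neither did any of 21197 genes (0%), while 3.97% of all genes and none of the 10 had an unadjusted p under 0.05. The largest differences, as Prkd3-/- minus WT on the log2 scale, were −1.09 for Cdk6 (SE 0.59) and 0.89 for Rbl1 (SE 0.56), both with an edgeR adjusted p of 1. Without WT line 3 the difference for Cdk6 was −0.48, and without Prkd3-/- line 13 that for Rbl1 was 0.48. The median difference over the 20 S-phase genes was 1.21, with 3 genes at an unadjusted p under 0.05 and none called, and it was 0.54 without line 13. The test cannot tell a difference of genotype from one between the deposited tables.

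Levels were also read beside those of genes within 5 Mb on either side, taken from the 13847 tested genes of mean log2 CPM above 1. Neighbour values had the line's median over all such autosomal genes subtracted, while the values of the 10 genes did not. The scales thus differ, and small gaps between a gene and its neighbours cannot be read. Cdk4, on chromosome 10 from 127063534 to 127067920, had a log2 ratio of 0.70 in WT line 4, and its 86 neighbours had a median of 0.62 there. In WT lines 3 and 5 the neighbours had 0.02 and 0.27 and Cdk4 0.04 and 0.17. In Prkd3-/- lines 13 and 13a Cdk4 had 0.42 and 0.53 with neighbours at −0.10 and 0.17, whose upper quartiles were 0.40 and 0.37. Within 2 Mb the upper quartile in line 13 was 0.44, above Cdk4. Lines 14 and 15 had 0.08 and 0.54 with neighbours at 0.18 and 0.32. Ccnd2, on chromosome 6 from 127125162 to 127152193, had 0.74 in Prkd3-/- line 15 with neighbours at 0.58, but −2.85 in line 13 with its 81 neighbours at 0.10. Cdk6, on chromosome 5 from 3341485 to 3531008, had 1.69 in WT line 3 with its 22 neighbours at 0.20. For Ccnd1, on chromosome 7 from 144929931 to 144939925, the 83 neighbours had −0.45 in Prkd3-/- line 15 and −0.73 in line 14, while Ccnd1 had 0.78 and −0.12. Rbl2 had 0.84 and 0.95 in Prkd3-/- lines 14 and 15, with neighbours at 0.37 and 0.30. Within 2 Mb its 11 neighbours had 0.77 and 0.28. The neighbours of Rb1, Rbl1, E2f1, E2f3 and Ccnd3 were read in the same way and are not given here. DNA copy number was not measured, and these values are descriptions with no test.

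**Figure D5:**
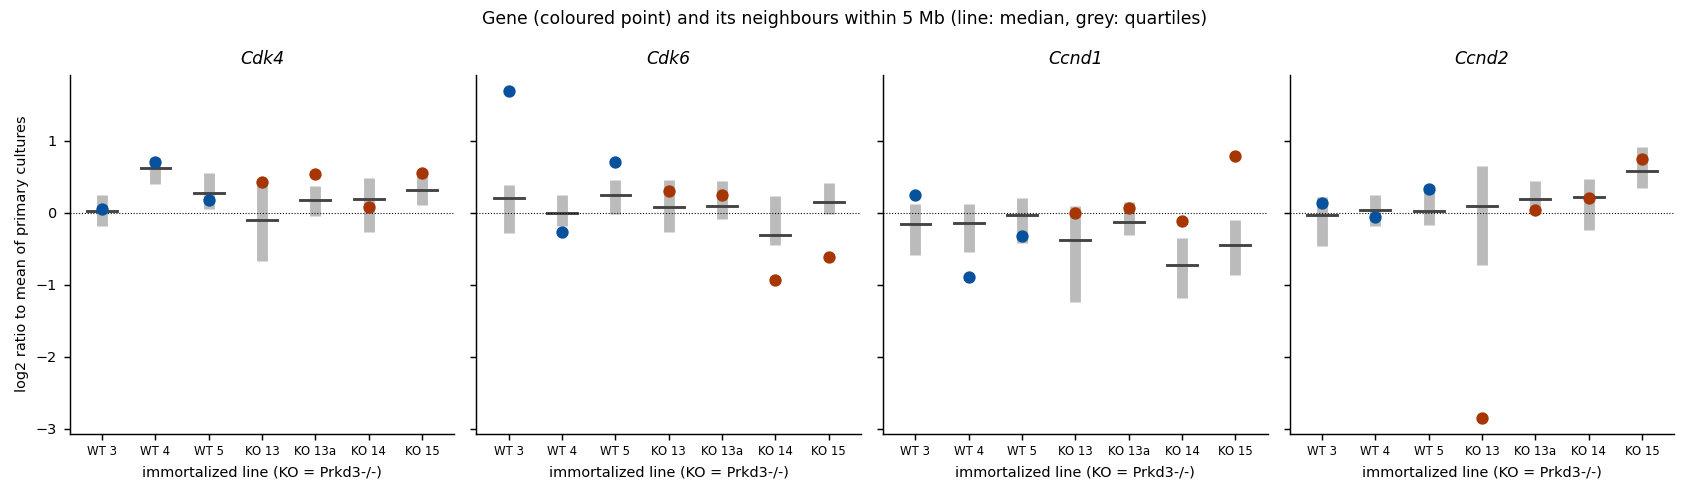
Log2 ratio of each immortalized line to the mean of its primary cultures for Cdk4, Cdk6, Ccnd1 and Ccnd2 (points, blue WT and brown Prkd3-/-) and for tested genes of mean log2 CPM above 1 within 5 Mb on either side (dark line: median, grey: quartiles). Neighbour values, unlike the points, had the line's autosomal median subtracted. In WT line 4 Cdk4 lies at 0.70 with its neighbours at 0.62. As drawn, it lies above their upper quartile in Prkd3-/- line 13a and close to it in line 13. Cdk6 in WT line 3 and Ccnd2 in Prkd3-/- line 13 lie far from theirs.

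The genes whose level ran most like each of the 10 were taken by Pearson correlation of log2 CPM over 13 libraries among 13847 genes. For Rbl1 they were Wdhd1, Smc4 and Plk4 (0.9865, 0.975 and 0.974), and for E2f1 Lsm6, Nemp1 and Cdk1 (0.932, 0.923 and 0.920). Those of Ccnd1 began with LTO1 (0.996) and those of Ccnd2 with Gm43126 (0.997), which share exon bases with them, followed by Enc1 and Fhod1 (0.840 and 0.839) and by Mir1906-1 and Meg3 (0.959 and 0.958). For Rbl2 they were Gm45464 (0.965), which also shares bases, Ppp6r2 (0.949) and Abhd8 (0.934). Rb1 ran most like Ift80 (0.889), E2f3 like Isg20l2 (0.952), Ccnd3 like Ccdc74a (0.946), Cdk4 like Zfp942 (0.933) and Cdk6 like Bbs5 (0.942). These are descriptions over 13 libraries with no test. They were not repeated without Prkd3-/- line 13, where Ccnd2 lay far below its level in every other library.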

How the data were processed

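For each genotype the authors deposited a table of unnormalized read-pair counts, and both list the same 55487 genes at the same lengths. Per the labels and the study's methods, paired reads were mapped to mm10 with STAR 2.7.10a, processed with SAMtools 1.18 and counted with featureCounts of Subread 2.0.6 on GRCm38 genes. The WT table was counted without strand and with each pair assigned to every gene it overlapped; the counting options of the other table are not given in the sources used here. Groups came from the sample labels, and nothing but the labels separates cultures, so p-values measure the spread between these samples.

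Counts were used as deposited, with edgeR 4.0.16 in R 4.3.3 (quasi-likelihood test, TMM, filterByExpr, robust estimation), each genotype on its own and the difference as an interaction over 13 libraries. Adjusted p-values are Benjamini-Hochberg over all tested genes. The SE is the Log2FC divided by the square root of F. Scripts were tested on simulated data. Floors of 3 counts cover counting error only. All 10 genes are named, with, from each of 7 pathway lists, the 2 of smallest p per genotype, and the 3 genes most like each. Other genes singled out (Cdkn2a, Cdkn2b, E2f7, E2f8) were chosen after their values were seen, and the genes and lists with earlier results of these data known. The clone numbers pair lines with primary cultures of the same embryo, and line 13a was paired with clone 13 from its label. Same-clone deviations correlated at −0.11 to 0.04 in WT and −0.34 to 0.16 in Prkd3-/-. Alternatives were DESeq2 1.42.0, limma 3.58.1, other scalings, filters and thresholds, a joint fit, lines 13 and 13a summed, the clone as a block and each library left out.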

Additional observations from a re-analysis of the deposited data

Results flagged for a closer look

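In the group of 4 Prkd3-/- lines 2 values lay farther from the others than Dixon's criterion allows at 95%: Ccnd1 in line 15, at 1087 CPM, and the share of Ccnd2 in the D-cyclin pool in line 13, at 11.8%. Of the values tested for this, 10 levels and 10 shares, chance flags about 1 in 20. The Ccnd2 level of line 13, 187 CPM, did not itself pass the criterion, since the other 3 lines also differ from each other.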

How the results depend on the processing

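No setting called any of the 10 genes in either genotype or in the difference between genotypes, and with each library left out the count stayed at 0. With the clone as a replicate block the count was also 0, and the block changed no other call on the 10 genes, although it took the number called over all WT genes from 361 to 0. That number was 1361 with DESeq2, 198 with limma, 157 with at least 10 counts in every library, 0 in the joint fit, 1045 at an adjusted p under 0.05 with no fold threshold, and 48 to 743 with each library left out (48 without WT primary clone 3, 743 without WT line 5). In Prkd3-/- it was 190 with DESeq2 and 1 in the joint fit against 0, and for the difference 37 with DESeq2 against 0. The cause of these shifts was not tested.

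The sign of a Log2FC turned in 1 of 160 repeats in WT, 12 of 180 in Prkd3-/- and 13 of 230 for the difference, none of a called gene. With lines 13 and 13a summed Ccnd2 had 0.19 in Prkd3-/- and a difference of 0.057, and E2f3 a difference of −0.10; that difference was −0.022 with no filter and −0.028 with the replicate block. With each library left out E2f3 ranged from −0.26 to 0.13 in WT. In Prkd3-/- the ranges were −0.20 to 0.28 for Rb1, −0.058 to 0.52 for Rbl1, −0.29 to 0.089 for E2f3, −0.061 to 0.36 for Ccnd1, −0.38 to 0.35 for Ccnd2, −0.53 to 0.085 for Ccnd3 and −0.37 to 0.0051 for Cdk6. For the difference they were −0.023 to 0.47 for Rb1, −0.20 to 0.20 for E2f3, −0.53 to 0.21 for Ccnd2, −0.11 to 0.49 for Ccnd3 and −0.083 to 0.27 for Cdk4. Each group holds 3 or 4 libraries, and the effect of depth was not tested.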
